A study of Mus musculus with 29 samples.

Results

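Vitamin D and calcium absorption is represented here by 5 genes, Vdr, Trpv6, S100g, Atp2b1 and Cyp24a1, of the 47357 gene identifiers found in all 29 libraries. They were named by symbol, and the set was selected on the high level of S100g in Rnaseh2b-deleted crypts against control crypts, so the values of that crypt comparison are given below as a description with no test. The tests below rest on the tissue and organoid libraries, which were not named as the reason for the choice.

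The libraries were RNA-seq of C57BL/6 mouse intestine in 3 sets. Isolated epithelial crypts came from mice of 52 weeks: 4 controls with floxed Rnaseh2b (H2B flox/flox) and 4 H2BdIEC mice, in which Rnaseh2b, a subunit gene of the RNase H2 enzyme that removes ribonucleotides from DNA, is deleted in intestinal epithelial cells. Tissue came from 4 mice with both genes floxed (H2B/p53flox/flox) and from 4 H2B/p53dIEC mice, which lack Rnaseh2b and p53 in the epithelium and gave 1 tumor and 1 adjacent library each. Intestinal organoids, epithelium grown in culture, gave 3 control libraries titled wild type with the genotype label H2B/p53flox/flox, 3 H2BdIEC libraries and 3 H2B/p53dIEC libraries. The labels give no age for the tissue mice, do not name the promoter behind the epithelial deletion, and do not tie organoid libraries to separate mice, so organoid p-values reflect only how far these libraries scatter, and that scatter may be technical. H2B/p53dIEC is written H2Bp53dIEC from here on.

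Dietary calcium crosses the intestinal epithelium either between cells or through them. The route through the cell has an apical entry channel (Trpv6), a cytosolic calcium carrier (S100g, calbindin-D9k) and a basolateral calcium pump (Atp2b1, PMCA1). The vitamin D receptor (Vdr), a nuclear receptor that pairs with a retinoid X receptor, raises transcription of this route when it binds calcitriol, and Cyp24a1, the enzyme that inactivates calcitriol, is one of its best known targets. The route is known to be most active in the proximal small intestine.

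The genes lie at the following positions of GRCm38. Vdr (ENSMUSG00000022479) is at chr15:97854425-97910630 on the minus strand. Trpv6 (ENSMUSG00000029868) is at chr6:41620624-41636405 on the minus strand. S100g (ENSMUSG00000040808) is at chrX:162961992-162964599 on the minus strand, inside the span of Ctps2 on the opposite strand, with which it shares 0 exon bases. Atp2b1 (ENSMUSG00000019943) is at chr10:98914406-99026143 on the plus strand. Cyp24a1 (ENSMUSG00000038567) is at chr2:170482708-170497145 on the minus strand and shares 83 exon bases with Pfdn4 on the opposite strand. The kit keeps the strand, but whether the counting used it is not given in the sources used here. Ctps2 did not follow S100g in the crypts: its mean was 14.1 CPM in controls and 10.5 CPM in H2BdIEC. Pfdn4 was at a mean of 21.6 CPM in tumors against 9.37 CPM in adjacent tissue, which bears on the few Cyp24a1 reads reported below.

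Promoters are shown for the receptor, the channel and the carrier because the latter genes are textbook targets of the first. Each line gives the 250 bases before the RefSeq start on GRCm38.p6, 5′ to 3′ on the minus strand of the genes, at chrX:162964600-162964849 for S100g, chr6:41636406-41636655 for Trpv6 and chr15:97908297-97908546 for Vdr. Capitals mark matches to the receptor half-site, searched on both strands. The words searched were AGGTCA, which is the consensus, then GGGTCA as one variant, then AGTTCA as another variant and lastly GGTTCA as the remaining variant.
S100g: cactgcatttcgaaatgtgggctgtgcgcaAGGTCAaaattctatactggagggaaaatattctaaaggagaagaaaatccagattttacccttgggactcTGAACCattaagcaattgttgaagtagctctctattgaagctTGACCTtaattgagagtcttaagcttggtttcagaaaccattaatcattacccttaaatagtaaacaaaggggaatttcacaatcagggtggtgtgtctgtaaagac
Trpv6: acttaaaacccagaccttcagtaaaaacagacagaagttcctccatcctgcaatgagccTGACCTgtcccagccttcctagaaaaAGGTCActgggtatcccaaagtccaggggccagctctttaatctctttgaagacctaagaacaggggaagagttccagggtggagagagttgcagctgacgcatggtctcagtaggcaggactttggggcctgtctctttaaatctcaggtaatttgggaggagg
Vdr: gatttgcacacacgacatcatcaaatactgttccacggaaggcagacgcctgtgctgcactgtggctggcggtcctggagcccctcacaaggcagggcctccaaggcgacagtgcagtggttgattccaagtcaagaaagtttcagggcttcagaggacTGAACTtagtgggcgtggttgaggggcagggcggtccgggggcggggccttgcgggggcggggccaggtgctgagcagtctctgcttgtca

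S100g held 3 half-sites, at positions -220, -149 and -107, Trpv6 held 2, at -191 and -165, and Vdr held 1, at -91, counted to the 5′ end of the match with -1 as the base before the start. Of 32851 RefSeq mouse promoters, 38.6% held at least 1 such half-site in a window of this length. A direct repeat of the half-site with a spacer of 3 bases (DR3, the classical vitamin D response element) was in none of the member promoters searched and in 0.0396% of all promoters. Cyp24a1 had no entry among these promoters and was not searched. For the intestinal factor Cdx the word TTTATG and its variant with a final T (TTTATT) were searched on both strands, and 25.5% of promoters held either. The TATA box, searched as TATAAA, was in 12.4%. None of the printed windows held any of these. For Atp2b1 the table has 2 starts, both without a half-site, with GC contents of 78.4% and 80.8% against 38.4% for S100g. These are letter matches and say nothing of binding.

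Library totals ran from 15545059 to 25913155 counts in crypts and from 5774771 to 21386586 in organoids. In tissue they ran from 21884287 to 41504298 except for tissue control 1320, which held 401365 counts. Levels are in CPM, a gene's share of its library's counts after TMM scaling, and a change was called at an adjusted p under 0.05 in edgeR's quasi-likelihood test with Benjamini-Hochberg adjustment over all genes. Errors after ± are SDs where the value is a level and SEs where it is a log2 difference. Rnaseh2b averaged 10.6 CPM in control crypts and 2.50 CPM in H2BdIEC crypts, and in tissue and organoids it was also lower in every deleted library than in every control. Trp53 averaged 44.8 CPM in tissue controls against 21.3 CPM in adjacent tissue and 19.8 CPM in tumors, and 107 CPM in control organoids against 11.1 CPM in H2Bp53dIEC organoids.

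Region markers differed between the libraries, and these values stand beside every result below. In tissue controls the ileal bile acid binding protein Fabp6 was at 6381 to 12674 CPM, and in adjacent tissue at 7406 to 9520 CPM except in mouse 1323 with 15.7 CPM. Tumors had 3.40 to 38.5 CPM of Fabp6. The duodenal factor Pdx1 was at most 0.135 CPM in tissue controls and adjacent tissue and at 1.2 to 5.61 CPM in tumors. The proximal small intestine list of 9 genes, which holds Pdx1, was mixed. From adjacent tissue to tumor 2 of its genes were called higher and 2 lower. As a mean log2 CPM it lay between 3.86 and 6.21 in tumors and between 2.81 and 5.45 in adjacent tissue, with overlap. All 5 genes of the distal small intestine list were lower and all 7 of the stomach and Brunner gland list were higher in tumors than in adjacent tissue. The enterocyte list, as a mean log2 CPM over 8 genes, lay between 9.78 and 12.5 in the adjacent libraries and between 5.66 and 10.1 in the tumors. Tumor status and position along the gut cannot be told apart in these samples. In such bulk samples fewer cells of a type and less RNA per cell cannot be told apart either.

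**Figure D1:**
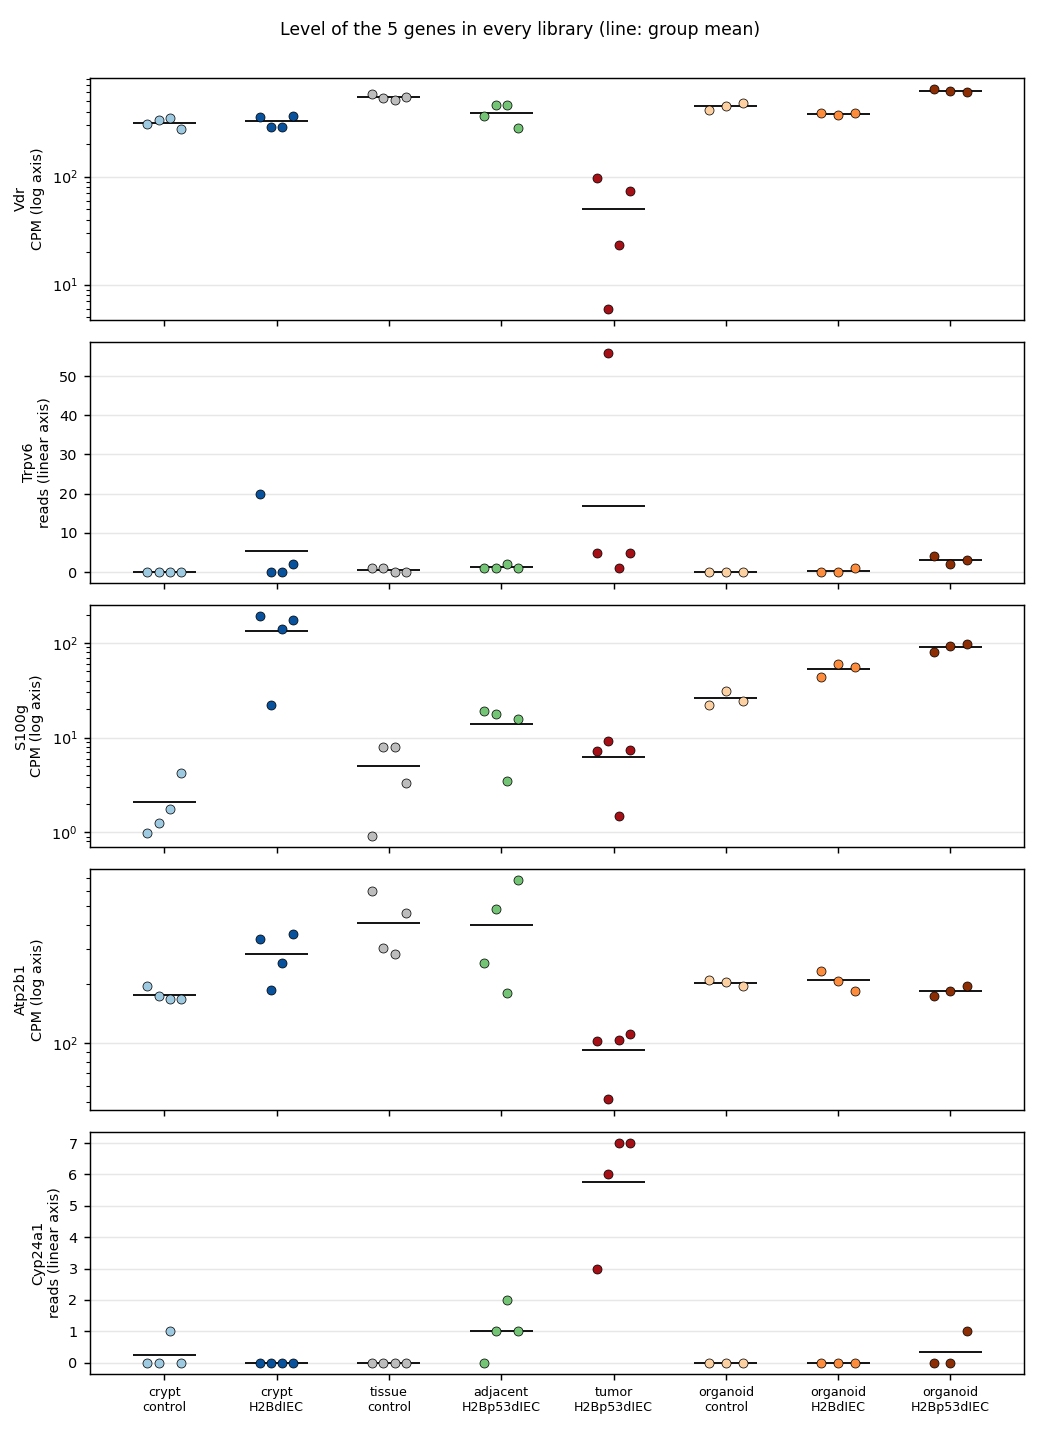
Level of each gene in all 29 libraries by group, with a line at the group mean. Vdr, S100g and Atp2b1 are in CPM on log axes and Trpv6 and Cyp24a1 are raw reads on linear axes. The tumors are lowest for Vdr and Atp2b1, and S100g is highest in H2BdIEC crypts.

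Vdr, the receptor, was abundant in every group except the tumors. Control crypts had 306, 335, 348 and 274 CPM and H2BdIEC crypts had 353, 288, 289 and 367 CPM. These ranges overlapped, with a log2 difference of 0.04 ± 0.13.

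In tissue, Vdr was lower in every tumor than in every other tissue library. Tissue controls 1315, 1316, 1320 and 1321 had 584, 532, 514 and 543 CPM. Adjacent tissue of mice 1319, 1322, 1323 and 1349 had 365, 459, 457 and 284 CPM, and the tumors of the same mice had 96.6, 6.01, 23.4 and 74.2 CPM. Each tumor was below its own adjacent tissue, by 3.78-fold in mouse 1319, 3.83-fold in mouse 1349, 19.5-fold in mouse 1323 and 76.4-fold in mouse 1322. Vdr fell by 2.97 ± 0.62 on the log2 scale from adjacent tissue to tumor (7.81-fold, adjusted p 0.00232, 4 tumor against 4 adjacent libraries with no mouse term, edgeR). In that comparison 23.0% of all 17666 genes tested were called higher and 24.0% lower, so a call in it is common. Against tissue controls Vdr fell by 3.44 ± 0.64 (adjusted p 0.000743), where 28.6% of genes were called higher and 26.1% lower. The 2 comparisons share the tumors. The tumors with the lowest enterocyte lists, 1322 at 5.66 and 1323 at 6.80, were also those with the lowest Vdr, and tumors 1319 and 1349 had enterocyte lists of 9.95 and 10.1. The part of enterocyte content in the fall of Vdr was not tested.

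Adjacent tissue lay below the tissue controls for Vdr in every library, without overlap (391 ± 83.8 against 543 ± 29.8 CPM). The difference of -0.47 ± 0.58 did not pass the test (adjusted p 0.718), in a comparison where 0.792% of genes were called higher and 0.277% lower.

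In organoids Vdr took 3 levels. Control organoids A, B and C had 412, 450 and 479 CPM, H2BdIEC organoids A, B and C had 390, 371 and 386 CPM, and H2Bp53dIEC organoids 1, 2 and 3 had 646, 620 and 603 CPM. The 3 groups did not overlap. The H2BdIEC organoids were lower than controls by a log2 difference of -0.23 ± 0.07 that did not pass the test in edgeR (adjusted p 0.102), with 2.08% of genes called higher and 1.97% lower among 15701 tested. By DESeq2 the same difference had an adjusted p of 0.0496, and without the shallowest library, H2BdIEC A, edgeR gave 0.0240. Vdr rose in H2Bp53dIEC organoids by 0.70 ± 0.07 over H2BdIEC organoids (adjusted p 2.61e-05), with 13.9% of genes called higher and 15.4% lower. It rose by 0.48 ± 0.07 over controls (adjusted p 0.000290), with 16.7% called higher and 16.6% lower.

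The H2Bp53dIEC genotype thus went with a lower Vdr mean in adjacent tissue and a higher one in organoids, each against floxed controls. The difference between these effects, tested in 1 fit over tissue and organoid libraries without the tumors, was -0.96 ± 0.21 on the log2 scale (adjusted p 0.0166, edgeR). In that test 5.28% of 19248 genes were called. The fit used 1 spread per gene for both sets, and its SE was below the 0.58 of the tissue effect in its own fit. That tissue effect alone did not pass the test (adjusted p 0.718, edgeR). Tissue and organoid libraries are separate sets, so the kind of sample and the set cannot be told apart.

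Trpv6, the apical entry channel, had at most 5 reads in every library except H2BdIEC crypt 1 and tumor 1322. All 4 control crypts had 0 reads. H2BdIEC crypts 1 to 4 had 20, 0, 0 and 2 reads. A count of 0 allows up to 3 reads, and of the crypts only H2BdIEC crypt 1 stood above that limit.

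Among the tissues, tumors 1319, 1322, 1323 and 1349 had 5, 56, 1 and 5 reads of Trpv6. Adjacent tissue of the same mice had 1, 1, 2 and 1 reads, and tissue controls 1315, 1316, 1320 and 1321 had 1, 1, 0 and 0. Tumor 1322, which also had the lowest Vdr and Atp2b1, therefore held 56 of the 67 tumor reads. Organoid controls had 0 reads in each library, H2BdIEC organoids 0, 0 and 1, and H2Bp53dIEC organoids 4, 2 and 3.

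Trpv6 did not pass the filter on low counts in any set. In a fit without that filter, edgeR gave adjusted p-values of 0.0454 for tumor against adjacent tissue, 0.0235 for tumor against tissue control and 0.0169 for H2Bp53dIEC against control organoids. Trpv6 was on the higher side in each. Genes called higher in those fits were 13.2%, 17.2% and 10.3% of all genes. Without tumor 1322 the first value became 0.375 and the second 0.0862, and leaving out any 1 control organoid library took the third to between 0.0579 and 0.0714. Leaving out other single libraries also took these values past 0.05, so they rest on a handful of reads.

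S100g, the cytosolic carrier that buffers and ferries calcium across the cell, gave the reason for the choice of genes. Control crypts 1 to 4 had 0.982, 1.26, 1.78 and 4.23 CPM. H2BdIEC crypts 1 to 4 had 193, 22.0, 142 and 177 CPM. Every H2BdIEC library was above every control, and H2BdIEC 2 was far below the other 3. The log2 difference was 6.04 ± 0.87, and 6.40 ± 0.47 without H2BdIEC 2. In this comparison 5.16% of 14596 genes were called higher and 4.87% lower. Since the choice rests on this value, nothing is read from it.

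The crypt groups also differed in region markers. The proximal small intestine list, a mean log2 CPM over 9 genes, was 6.38 to 7.15 in H2BdIEC crypts and 5.06 to 5.93 in controls, without overlap. Pdx1 was 23.5, 6.81, 19.0 and 21.1 CPM in H2BdIEC crypts 1 to 4 and at most 1.98 CPM in controls. H2BdIEC 2 was thus lowest of its group in S100g, in Pdx1 and in the proximal list, and it was highest in the acinar pancreas list, at 5.48 against 0.58 to 0.94 in the other 3. The distal list overlapped, at 3.82 to 5.51 in H2BdIEC crypts and 3.03 to 6.79 in controls. Cell type lists also separated the crypt groups without overlap. The enterocyte list was 11.7 to 12.1 in H2BdIEC crypts and 11.2 to 11.6 in controls, and the stem cell list 3.80 to 4.85 and 5.22 to 5.66. The Paneth and goblet lists were lower in every H2BdIEC crypt library than in every control. Genotype, proximal markers and cell type markers separate the same crypt libraries, so they cannot be told apart there.

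**Figure D2:**
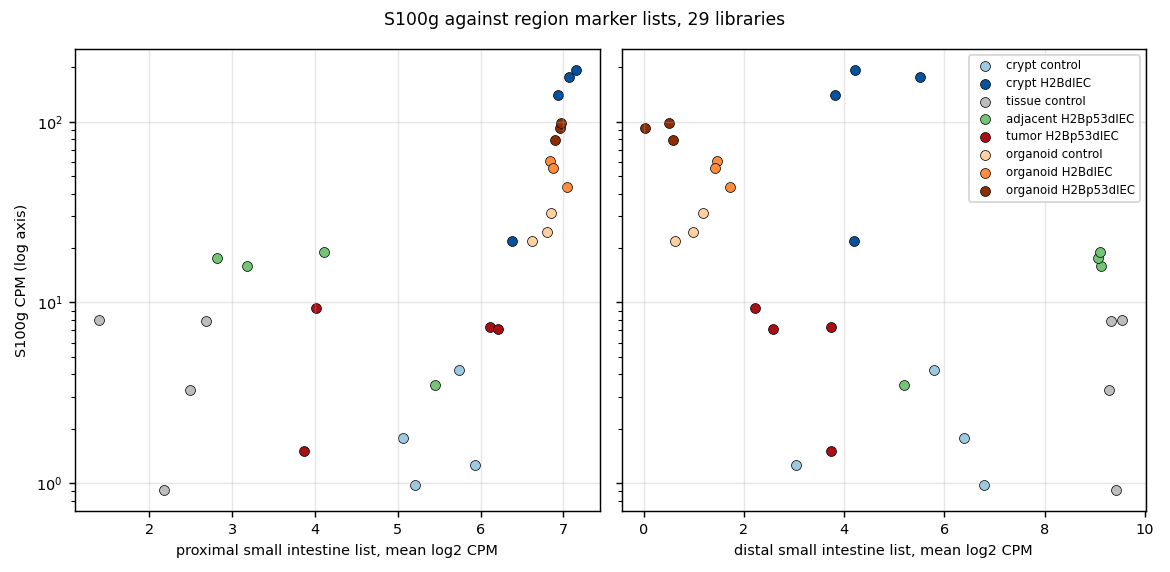
S100g in CPM (log axis) against the mean log2 CPM of the proximal and distal small intestine lists, 1 point for each of the 29 libraries. H2BdIEC crypts lie right of and above control crypts in the proximal panel, and the 3 organoid groups differ in S100g within a proximal range of 6.62 to 7.05.

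Organoids gave a comparison of S100g that was not named as the reason for the choice, although earlier results of these data were known when it was made. Control organoids A, B and C had 22.0, 31.2 and 24.7 CPM, H2BdIEC organoids had 43.5, 60.7 and 55.5 CPM, and H2Bp53dIEC organoids had 79.8, 92.1 and 98.7 CPM. The 3 groups were separate and ordered, from control to single to double deletion. S100g rose by 1.05 ± 0.14 in H2BdIEC over control organoids (2.07-fold, adjusted p 0.00121, higher in 3 of 3 libraries). It rose by a further 0.74 ± 0.14 in H2Bp53dIEC over H2BdIEC organoids (1.67-fold, adjusted p 0.00176). Over controls the rise was 1.79 ± 0.14 (3.46-fold, adjusted p 2.31e-06). These comparisons share groups with each other. All 37 alternative fits of the 3 comparisons kept the call, with values from 0.94 to 1.21 for the first, 0.63 to 0.84 for the second and 1.68 to 1.95 for the third.

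As a mean, the proximal list was at 6.62 to 6.85 in control, 6.84 to 7.05 in H2BdIEC and 6.89 to 6.97 in H2Bp53dIEC organoids. Its 9 genes went both ways: 1 was called higher and 1 lower in H2BdIEC over control organoids, 2 higher and 2 lower in H2Bp53dIEC over H2BdIEC, and 4 higher and 2 lower in H2Bp53dIEC over control. Pdx1 was 27.0 to 37.5 CPM in controls, 33.5 to 41.6 CPM in H2BdIEC and 58.0 to 59.2 CPM in H2Bp53dIEC organoids. The enterocyte list was 7.29 to 8.05, 8.06 to 8.60 and 8.01 to 8.11 in the same order. The part of these markers in the S100g rise was not tested.

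In tissue S100g was low. Tissue controls 1315, 1316, 1320 and 1321 had 0.921, 7.90, 8.03 and 3.28 CPM, the value of 1320 being 3 reads. Adjacent tissue of mice 1319, 1322, 1323 and 1349 had 19.0, 17.7, 3.51 and 15.8 CPM, and the tumors of the same mice had 7.16, 9.26, 1.5 and 7.34 CPM. Of the adjacent libraries 3 were above all controls and 1, mouse 1323, was among them. The rise of the mean over controls, 1.71 ± 0.75, did not pass the test (adjusted p 0.265, edgeR, 0.153 to 0.533 over the alternatives).

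S100g was lower in the tumor than in the adjacent tissue of all 4 mice, by 2.65-, 1.91-, 2.34- and 2.15-fold in mice 1319, 1322, 1323 and 1349. The fit gave -1.15 ± 0.68 (adjusted p 0.183), and with mouse as a block -1.17 ± 0.52 (adjusted p 0.0917), so this did not pass the test either. Tumor against tissue control gave 0.56 ± 0.73 (adjusted p 0.537). Adjacent tissue 1323 had the lowest S100g of its group. Its enterocyte list of 12.5 was the highest of the 12 tissue libraries, and its proximal list of 5.45 was the highest of the 4 adjacent ones and below tumors 1319 (6.21) and 1349 (6.11).

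**Figure D3:**
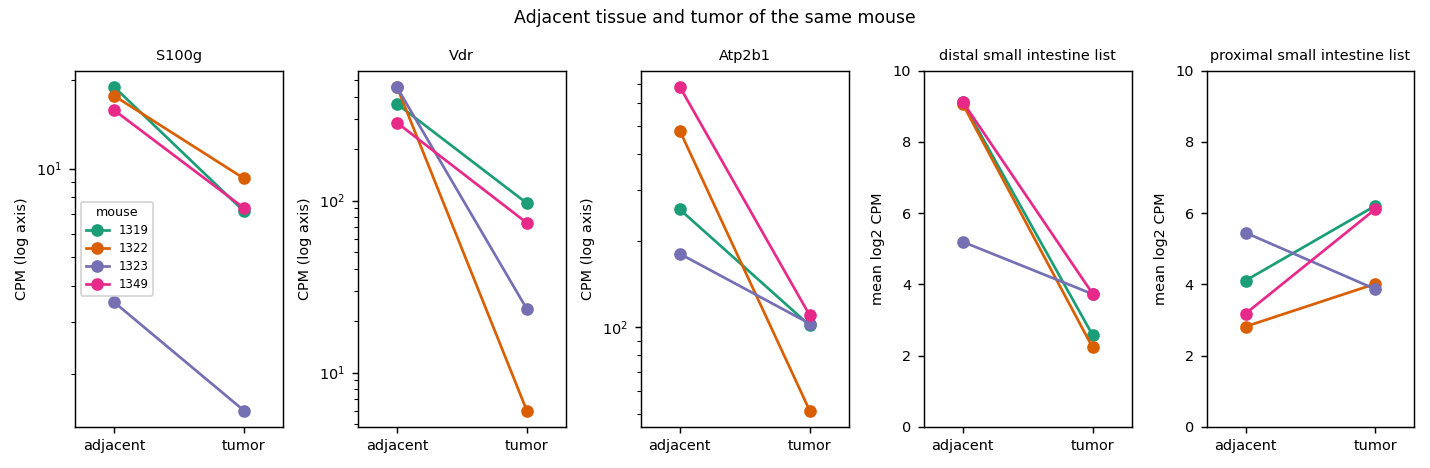
Adjacent tissue and tumor joined by mouse, for S100g, Vdr and Atp2b1 in CPM (log axes) and for the distal and proximal small intestine lists as mean log2 CPM. The 3 genes and the distal list are lower in the tumor of all 4 mice, and the proximal list is higher in the tumor of 3 mice.

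Atp2b1, the basolateral pump that uses ATP to move calcium out of the cell, was abundant everywhere. Control crypts 1 to 4 had 196, 173, 168 and 167 CPM and H2BdIEC crypts 1 to 4 had 339, 186, 256 and 358 CPM. Only H2BdIEC 2 lay within the control range. The log2 difference was 0.69 ± 0.18.

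In tissue Atp2b1 varied widely outside the tumors. Tissue controls had 597, 304, 284 and 463 CPM in the order of mice given above. Adjacent tissue had 257, 481, 180 and 684 CPM and the tumors of the same mice had 102, 51.5, 103 and 110 CPM. Every tumor was below every other tissue library. Atp2b1 fell by 2.13 ± 0.42 from adjacent tissue to tumor (4.37-fold, adjusted p 0.00149) and by 2.18 ± 0.42 from tissue control (4.52-fold, adjusted p 0.000942). In these comparisons 24.0% and 26.1% of all genes were called lower, so such a call is common. Of the enterocyte markers 6 of 8 and of the smooth muscle markers 4 of 4 were also called lower in tumors than in adjacent tissue. The part of cell content in the fall of Atp2b1 was not tested. Adjacent tissue and tissue controls overlapped, at -0.05 ± 0.40 (adjusted p 0.976).

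Organoids held Atp2b1 within a narrow band. Controls A, B and C had 209, 205 and 195 CPM, H2BdIEC had 234, 206 and 185 CPM, and H2Bp53dIEC had 174, 184 and 194 CPM. None of the 3 comparisons passed the test, with log2 differences of 0.03 ± 0.09 for H2BdIEC over control (adjusted p 0.852), -0.18 ± 0.09 for H2Bp53dIEC over H2BdIEC (0.142) and -0.14 ± 0.08 for H2Bp53dIEC over control (0.220). H2Bp53dIEC organoids were below controls without overlap, and in a fit of those 2 groups alone the adjusted p was 0.0422. Without H2BdIEC organoid C the second difference was -0.26, with an adjusted p of 0.0301.

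Cyp24a1, the enzyme that ends the action of calcitriol, was at or under 3 reads outside the tumors. Of the 8 crypt libraries only control 3 had a read, and of the 9 organoid libraries only H2Bp53dIEC 3 had 1. All 4 tissue controls had 0 reads, adjacent tissue of mice 1319, 1322, 1323 and 1349 had 0, 1, 2 and 1, and the tumors of the same mice had 3, 6, 7 and 7. The tumors were above the tissue controls without overlap, tumor 1319 being only at the 3 reads that a count of 0 allows. In the fit without the filter on low counts edgeR gave an adjusted p of 0.00204 against tissue control and 0.0568 against adjacent tissue. By DESeq2 the first was 0.0638. The shared bases with Pfdn4 leave the gene of origin of these few reads uncertain.

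**Figure D4:**
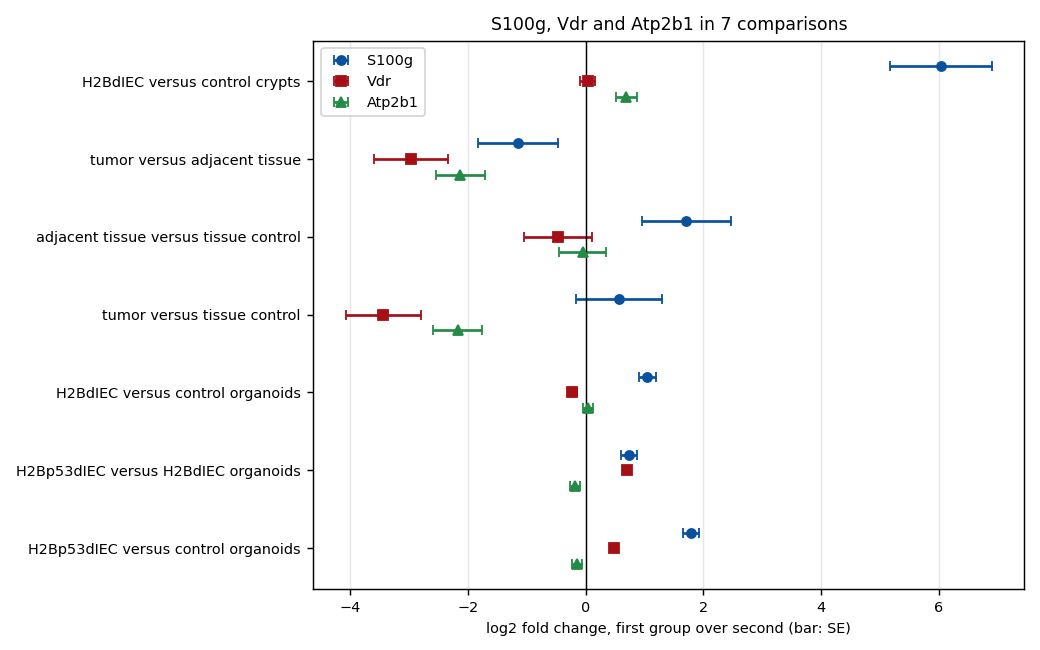
Log2 fold change with its SE for S100g, Vdr and Atp2b1 in the 7 comparisons, first group over second. The crypt values are descriptions only. S100g is above 0 in all 3 organoid comparisons, and Vdr and Atp2b1 are below 0 in both tumor comparisons.

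Per length of all annotated exons of a gene (RPKM), the balance of the 3 members that passed the filter on low counts differed between the sets. The order of genes within a group depends on those annotated lengths. In control crypts mean Vdr was 55.9, Atp2b1 11.6 and S100g 4.30 RPKM, so the receptor led. In H2BdIEC crypts S100g led by mean, with 278 RPKM against 57.4 for Vdr and 18.7 for Atp2b1, but in H2BdIEC crypt 2 Vdr was higher (51.0 against 45.9 RPKM). In control organoids Vdr was at 79.1 and S100g at 54.1 RPKM. The order of these means was the opposite in both deleted groups, with 67.7 RPKM for Vdr and 111 for S100g in H2BdIEC organoids and 110 for Vdr and 188 for S100g in H2Bp53dIEC organoids. In tumors mean S100g was at 13.2, Vdr at 8.86 and Atp2b1 at 6.02 RPKM. By library, Vdr was above S100g in tumors 1319 (17.1 against 14.9 RPKM) and 1323 (4.15 against 3.13 RPKM).

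Ordered by mean CPM over the 8 groups, S100g ran from H2BdIEC crypts (133 ± 77.3) through H2Bp53dIEC (90.2 ± 9.62), H2BdIEC (53.2 ± 8.83) and control organoids (26 ± 4.75), adjacent tissue (14 ± 7.12), tumors (6.32 ± 3.35) and tissue controls (5.03 ± 3.52) to control crypts (2.06 ± 1.48). The ranges of the first pair overlapped, as did those of adjacent tissue with tumors, of tumors with tissue controls and of tissue controls with control crypts. Levels in different sets were scaled separately. Vdr was highest in H2Bp53dIEC organoids (623 ± 22.0), then in tissue controls (543 ± 29.8), and lowest in tumors (50.1 ± 42.4), which were below every other group without overlap. Atp2b1 was also lowest in tumors (91.6 ± 27.0) without overlap.

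The genes whose log2 CPM followed each member most closely over the 29 libraries were listed as a description, since libraries share sets, depth and tissue. For S100g they were Ephx1 (Pearson r 0.80), Akp3 (0.79), Ckb (0.72), Slc40a1 (0.72) and Pdx1 (0.70), of which the iron exporter Slc40a1 and Pdx1 are in the proximal list. The 29 libraries include the crypts on which S100g was chosen. Each of these genes was also higher in every H2BdIEC crypt library than in every control crypt, so their r values rest in part on that choice. For Vdr they were Nags (0.98), Prlr (0.96) and Acot4 (0.95), and for Atp2b1 Abcb1a (0.91), Srr (0.90) and Snx7 (0.90). The members themselves were less alike, with r of 0.65 for Vdr with Atp2b1, 0.18 for S100g with Vdr and 0.02 for S100g with Atp2b1.

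Around the members, genes of the pathway lists were called lower from adjacent tissue to tumor more often than higher. In this comparison 23.0% of all genes tested were called higher and 24.0% lower. Of 14 tested genes of vitamin D metabolism and the receptor complex, 2 rose and 8 fell from adjacent tissue to tumor, Vdr included, with a median log2 difference of -0.66 against -0.0025 for all genes. Rxra, the partner of Vdr, fell by 2.01 ± 0.18 (adjusted p 1.38e-05). Cubn, a receptor for vitamin uptake, fell by 5.43 ± 0.50 (adjusted p 1.60e-05), and it is also 1 of the 5 distal markers. Cyp27b1, the enzyme that makes calcitriol, rose by 2.09 ± 0.57 (adjusted p 0.0102), from 0.222 to 0.935 CPM. Of 19 tested genes of the route through the cell, 2 rose and 12 fell, with a median of -1.53. The calcium pump Atp2b4 fell by 2.29 ± 0.31, the sodium-calcium exchanger Slc8a1 by 2.75 ± 0.39 and S100a10, which helps bring Trpv6 to the membrane, by 1.78 ± 0.24 (adjusted p 0.000134, 0.000187 and 0.000118). The genes of this list that rose were the stanniocalcins, secreted glycoproteins of calcium and phosphate balance: Stc1 by 3.51 ± 0.57 (adjusted p 0.000468), from 3.98 to 45.2 CPM, and Stc2 by 2.29 ± 0.44 (adjusted p 0.00114), from 5.95 to 29.2 CPM. Of smooth muscle markers, whose tissue also expresses Atp2b4 and Slc8a1, 4 of 4 fell as well, with summed CPM of 2338 to 3275 in the adjacent libraries and 263 to 670 in the tumors.

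Among other absorption genes more were called lower than higher in tumors against adjacent tissue. Over all genes in this comparison 23.0% were called higher and 24.0% lower. With 3 claudins and 7 other Vdr targets tested, those counts are too small to read as anything about the lists. Of 8 phosphate and magnesium genes 0 rose and 5 fell (median -1.92), among them the magnesium channel Trpm6 by 3.40 ± 0.48, the magnesium transporter Cnnm4 by 2.51 ± 0.37 and the phosphate transporter Slc34a3, with a log2 difference of -4.70 ± 0.75, at 0.0506 CPM in tumors against 1.39. Of 3 claudins of the route between cells 1 fell, Cldn15 by 1.60 ± 0.41 (adjusted p 0.00715). Of 7 other known Vdr targets 1 rose and 3 fell, with Abcb1a down by 4.30 ± 0.56, Slc30a10 by 2.70 ± 0.75 and Abcc2 by 2.84 ± 0.80, and Slc37a2 up from 2.52 to 6.18 CPM (adjusted p 0.0394). Between adjacent tissue and tissue controls, where edgeR called 0.792% of all genes higher and 0.277% lower, 0 of the 51 tested list genes were called in edgeR. Of these 51, 12 had an unadjusted p under 0.05 in edgeR, S100g among them, and 2, Cyp27a1 and Stc2, were called by DESeq2. The share of all genes under that unadjusted p is not given here.

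In H2BdIEC organoids some of the other Vdr targets were called higher, in numbers too small to read as anything about the list. Of 7 tested targets outside the members, 3 rose and 0 fell in H2BdIEC over control organoids, with a median of 0.36 against -0.0044 for all genes, in a comparison where 2.08% of all genes were called higher. The drug-metabolising enzyme Cyp3a11 rose by 2.17 ± 0.24 (adjusted p 0.000853), the transporter Slc37a2 by 1.62 ± 0.27 (0.00543) and the efflux pump Abcb1a by 0.36 ± 0.08 (0.0219). In the 4 other lists S100g and Cubn (2.41 ± 0.32, adjusted p 0.00109) were the genes called, with 35 tested. Vdr itself was not higher in these libraries. Targets without a call included Slc30a10, at means of 63.9 CPM in H2BdIEC and 63.8 CPM in control organoids, and Abcc2, at 322 and 342 CPM. The enterocyte list was 8.06 to 8.60 in H2BdIEC and 7.29 to 8.05 in control organoids. The part of enterocyte content in these rises was not tested.

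In H2Bp53dIEC over H2BdIEC organoids, where 13.9% of all genes were called higher and 15.4% lower, the lists held calls in both directions, in numbers too small to read as anything about the lists. Of 13 vitamin D genes 1 rose, Vdr, and 2 fell, Cubn by 2.24 ± 0.33 and the coactivator Ncoa1 by 0.34 ± 0.07. Of 14 genes of the route through the cell 1 rose, S100g, and 4 fell. Anxa2, the partner of S100a10, fell by 0.58 ± 0.07, Rab11a, a membrane recycling GTPase, by 0.53 ± 0.08, Stc2 by 1.14 ± 0.16 and S100a10 by 0.32 ± 0.08. The phosphate transporters Slc20a1 and Slc20a2 rose by 0.66 ± 0.08 and 0.20 ± 0.07, and Slc34a2 fell by 0.99 ± 0.26. Of the 7 other Vdr targets 1 rose, Klk1 by 0.84 ± 0.15, and 1 fell, Slc30a10 by 0.79 ± 0.15. Over controls, where 16.7% of all genes were called higher and 16.6% lower, H2Bp53dIEC organoids had 3 targets higher and 1 lower, with Cyp3a11 up by 1.59 ± 0.23, Slc37a2 by 2.0 ± 0.26 and Abcb1a by 0.54 ± 0.08, and Slc30a10 down by 0.81 ± 0.14.

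In H2BdIEC over control crypts, given as a description, the same targets stood at log2 differences of 3.63 ± 0.78 for Slc37a2, 0.86 ± 0.23 for Cyp3a11 and 0.16 ± 0.22 for Abcb1a. Klk1, a kallikrein of the same list, stood at -1.12 ± 0.27, with 15.2 CPM in H2BdIEC crypts and 33.0 CPM in controls. The median over the 7 tested targets was 0.75. Slc37a2 was lowest of its group in H2BdIEC 2 (5.62 CPM against 14.8 to 46.0), the library that was also lowest in S100g.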

How the data were processed

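RNA was measured by sequencing in 8 crypt, 12 tissue and 9 organoid libraries. The deposited values are raw read counts per Ensembl gene, whole numbers with no normalization. Per the submitters' processing notes the authors used cutadapt 1.5 and 1.9, Trimmomatic 0.36, TopHat2 2.0.14 and HTSeq on GRCm38, and per the labels' protocols a stranded mRNA kit. Settings and annotation are not given in the sources used here. HTSeq summary lines in the crypt files were left out. Symbols and positions came from GENCODE M21, which matched 47310 of 47729 crypt, 49326 of 49585 tissue and 52403 of 52550 organoid identifiers. Unmatched identifiers held at most 0.0479% of counts in a set.

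Groups followed the labels. The sets were fitted separately in edgeR 4.0.16 (R 4.3.3), using filterByExpr, TMM and the robust quasi-likelihood test, with Benjamini-Hochberg adjustment over all genes and a threshold of 0.05. Log2 CPM used a prior count of 2, and the SE is the log2 fold change divided by the square root of F. RPKM used the union exon length. Trpv6 and Cyp24a1 failed the filter and were tested in a fit without it, an alternative chosen after seeing the data, as was the joint fit of adjacent tissue and organoids. Alternatives were other scaling, filters, DESeq2 1.42.0, 2-group fits, a replicate block, a proximal-list covariate in crypts and leaving out each library. The fits were tested on simulated data. Figures used matplotlib 3.10.9.

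The members and gene lists were chosen with earlier results of these data known. Of each list and tissue or organoid comparison, up to 3 called non-members with the smallest p could be named, and the most similar genes were 5 for S100g and 3 for Vdr and Atp2b1, among genes with a mean log2 CPM of at least 1. List genes named beyond these were chosen after their values were seen. A list gene that met the rule is not reported here, though the counts of its list include it. Tumor and adjacent libraries of 1 mouse pair by animal, although deviations from group means correlated only at -0.16 to 0.16 within mice. Promoters came from a RefSeq table that holds 4 of the 5 members. Depth limits precision most in tissue control 1320.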

Additional observations from a re-analysis of the deposited data

Results flagged for a closer look

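Among the groups of 4 libraries, 22 gene and group combinations were examined for a library far from the others, and 4 had one. The cutoff gives about 1 in 20 by chance only for normally spread values, which genes with few reads do not have. Where 1 library has reads and the others have 0, it is always passed. The 4 of 22 are therefore not read against chance. Trpv6 in H2BdIEC crypt 1 was at 1.08 CPM, far above the other 3. Trpv6 in tumor 1322 was at 2.03 CPM, far above the other tumors. Atp2b1 in the same tumor was at 51.5 CPM, far below the other tumors. Cyp24a1 in control crypt 3 was at 0.0379 CPM, which is 1 read where the other controls had 0. The effect of H2Bp53dIEC on Vdr differed between adjacent tissue and organoids by -0.96 on the log2 scale, by the test of the difference in edgeR. The effect in adjacent tissue alone did not pass its own test.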

How the results depend on the processing

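For S100g, Vdr and Atp2b1, 281 of 288 alternative values kept their side of the threshold, or in crypts stayed within 1 SE of the main value. Outside the crypts direction counted only where a fit gave a call, so uncalled differences could change sign and still be kept. For Atp2b1 between adjacent tissue and tissue control the alternatives ran from -0.44 to 0.19. The proximal list as a covariate moved all 3 crypt values, to 2.16 for S100g, -0.10 for Vdr and 0.067 for Atp2b1, but the list does not overlap between the crypt groups, so this fit cannot tell genotype and region apart. Vdr in H2BdIEC against control organoids passed the threshold with the DESeq2 test (-0.23) and without 1 library, with values from -0.29 to -0.17 when each library was left out. Atp2b1 in H2Bp53dIEC against control organoids passed it when only the 2 groups compared were fitted (-0.14), and against H2BdIEC organoids the values ran from -0.26 to -0.091 with 1 library left out. The cause of these changes was not tested. With the replicate block by mouse, tumor against adjacent tissue gave -1.17 for S100g, -3.50 for Vdr and -2.0 for Atp2b1, and by organoid letter, which is only a shared label, S100g gave 1.04, and no call changed for these genes. Trpv6 lost its call in 8 of 14 alternatives for tumor against adjacent tissue, 6 of 13 against tissue control and 5 of 9 in organoids, and Cyp24a1 in 1 of 13 against tissue control while gaining one in 3 of 14 against adjacent tissue. DESeq2 called 929 genes between adjacent tissue and tissue control where edgeR called 189. Depth limits Trpv6 and Cyp24a1 in every set and S100g in tissue control 1320.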
